A study of Homo sapiens with 288 samples.

Results

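The comparison described here is between EC and TB, 2 cell types made from the same human embryonic stem cell line, in the single-cell RNA-seq experiment named EQ. Cells entered when the summed counts of their library reached 10 to the power 5.4 and when no more than 31% of those counts lay in the 50 most abundant genes of that cell. Of 96 EQ libraries, 86 entered, from 38 of 45 EC cells and 48 of 51 TB cells. The series holds 288 libraries in all. Of the genes listed, 10945 had a mean of at least 5 CPM (counts of a gene scaled so that the counts of each cell sum to 1000000) in at least 1 type and were compared. The other 6547 genes were too low in both types to be compared.

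The study asked how adding a matched amount of each cell's amplified cDNA to the library reaction, called equalization, changes single-cell data. All cells came from H1, an established human embryonic stem cell line. EC stands for endothelial cells, for which H1 was kept in E8 medium with BMP4 (5 ng/ml) and Activin A (25 ng/ml) for 2 days and then given VEGF and WNT for 3 days. TB stands for trophoblast-like cells, for which H1 was kept in E8 medium without FGF2, with BMP4 (50 ng/ml) and the inhibitor SB431542. BMP4 was therefore part of both treatments, at different doses. In EQ each library was made from an equalized amount of cDNA and pooled by equal volume. In EQ-Vary the pooled volumes were made unequal, and EQ-75% repeated EQ with fewer reads per library. The libraries of all 3 experiments were made from the stored cDNA of the same cells, so EQ-Vary (38 EC and 46 TB cells passing) and EQ-75% (39 and 50) hold no cells from outside these 96. In EQ-75% EC 1, EC 14, TB 4, TB 28 and TB 48 passed, which did not pass in EQ. The labels name no separate cultures, so each type is 1 sample, and type, culture and treatment cannot be told apart. No test across cells was run and no p-value is given, and the spread among cells is given as a description.

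Endothelial cells line blood vessels. Receptors for VEGF and angiopoietin, a cadherin made by few other cells and transcription factors of the ETS and SOX families define them. Trophoblast is the outer epithelium of the early embryo and of the placenta, and GATA3, the AP-2 factors and simple-epithelial keratins are used to recognise it. Stem cells given BMP4 without FGF2 are known to make cells with trophoblast genes and, in some protocols, genes of the amnion, another early epithelium. Both kinds of gene were therefore followed here.

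The passing EC cells of EQ held from 471593 to 3966800 counts (median 2025150) in 7448 to 9868 detected genes. The passing TB cells held from 365570 to 3479240 counts (median 1968550) in 7858 to 10425 detected genes. The marker sums of the labelled types were compared. The 15 EC markers summed to between 659 and 11563 CPM in EC cells and between 6.29 and 151 CPM in TB cells. The 13 TB markers summed to between 2179 and 18021 CPM in TB cells and between 63.6 and 3963 CPM in EC cells, so that the types did not overlap in EC markers but overlapped in TB markers through EC 15. Of the TB markers, 6 had a mean of at least 5 CPM in EC cells and 11 in TB cells, and CDX2 and CGA were below 5 CPM in both types. Markers of mesoderm, neural cells and endoderm had medians of 0 CPM in both types. Single cells reached 376 CPM of mesoderm markers in EC and 78.4 CPM in TB. In EC they reached 10.5 CPM of neural and 41.1 CPM of endoderm markers. Markers of blood-forming cells had medians of 22.1 CPM in EC (up to 281) and 14.4 CPM in TB cells (up to 179). Smooth muscle markers had medians of 9.39 CPM in EC and 112 CPM in TB cells.

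1 EC cell stood apart. EC 15, with 2007480 counts, held 659 CPM of EC markers where the other 37 EC cells held 2614 to 11563. The largest part of these was SOX17, at 229 CPM against an EC median of 3.00 CPM, followed by PECAM1 at 99.6 CPM. TIE1 stood at 0, ERG at 3.99 CPM and TEK at 4.48 CPM. EC 15 also held 3963 CPM of TB markers where the other EC cells held 63.6 to 1691. Nearly all of that sum came from KRT8 (1696 CPM), KRT18 (1254 CPM) and TFAP2C (995 CPM), while GATA3 stood at 3.99 CPM, TFAP2A at 9.46 CPM and KRT19 at 1.99 CPM, and HAND1, VGLL1, KRT7 and MSX2 at 0. Its markers of undifferentiated cells summed to 2756 CPM, against 113 to 1169 CPM in the other EC cells and 75.8 to 1127 CPM in TB cells. It was kept, since the limits admit it, and the main values that rest on it are also given without it.

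Over all genes compared, EC and TB differed at least 4-fold in 2201 genes. The difference used throughout is log2 of (mean EC CPM + 1) over (mean TB CPM + 1), which is positive where EC was higher and understates the ratio of genes at low levels. At least 4-fold higher in EC were 916 genes (8.37% of those compared), and 1285 (11.7%) were at least 4-fold higher in TB. The median difference over all genes compared was -0.05, and 3840 genes (35.1%) lay within 0.5 of 0. Past 16-fold were 273 genes higher in EC and 263 higher in TB, and past 64-fold were 76 and 59. Just inside the 4-fold limit lay ALPK3, with means of 14.3 CPM in EC and 2.82 CPM in TB cells, and TBXA2R, with 72.7 and 17.4 CPM. Just outside it lay FAM212B, with 9.80 and 1.70 CPM, and ARHGEF7, with 137 and 33.6 CPM.

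**Figure D1:**
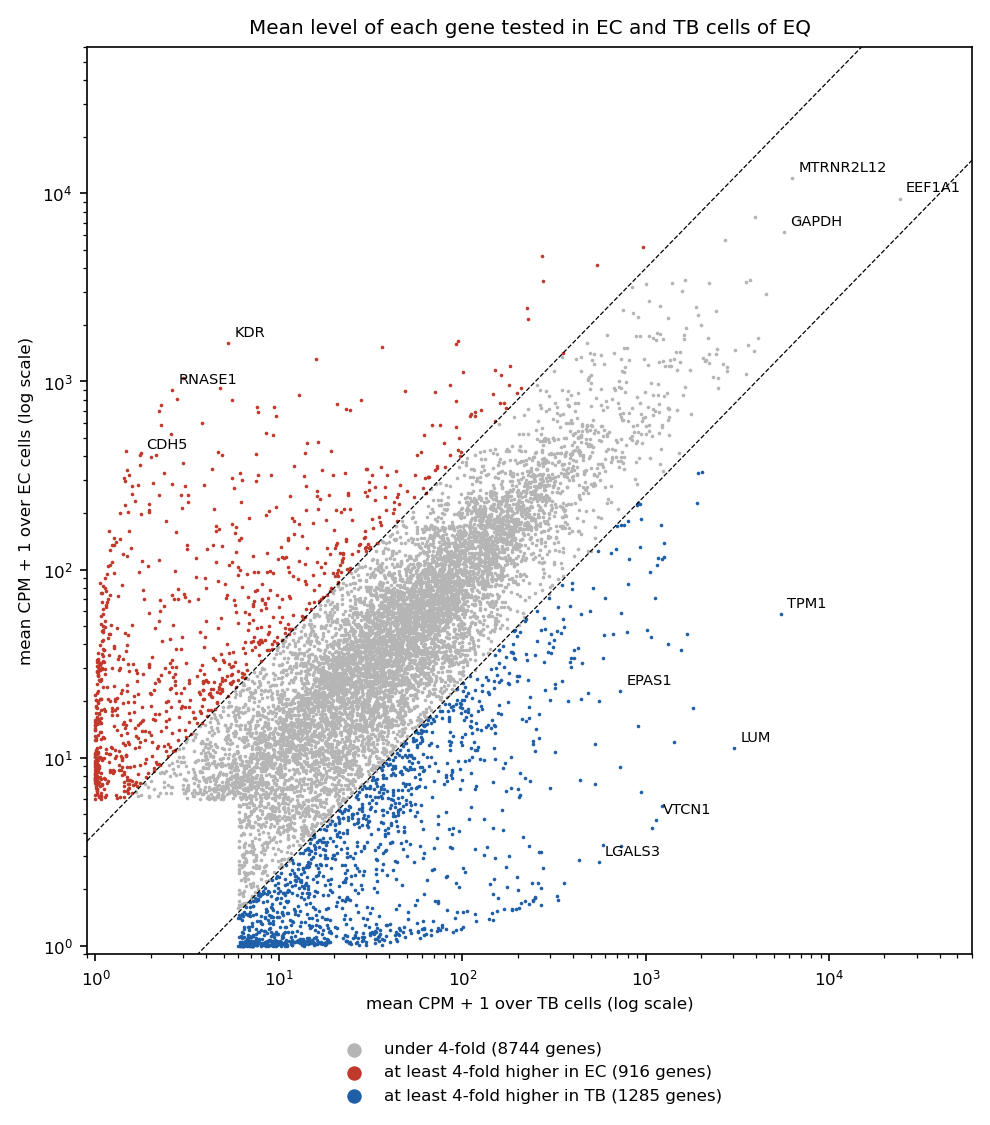
Mean CPM + 1 of each of the 10945 genes compared, over the 48 TB cells on the horizontal axis and the 38 EC cells on the vertical axis (both log scales), with dashed lines at 4-fold. The 916 genes higher in EC lie above the upper line and the 1285 higher in TB below the lower one, while MTRNR2L12, EEF1A1 and GAPDH lie between them.

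The genes 4-fold higher in EC held 13.3% of all EC counts and 1.22% of TB counts. Those 4-fold higher in TB held 13.2% of TB counts and 1.16% of EC counts. The most abundant genes were largely common to both types, with 53 genes shared between the lists of the 100 most abundant of each. In those lists, 15 of the EC genes were 4-fold higher in EC and 19 of the TB genes were 4-fold higher in TB. Among genes whose higher mean was at least 500 CPM, 14.05% were EC genes and 12.9% TB genes by the 4-fold rule. At 5 to 20 CPM the shares were 10.1% and 17.2%.

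The 5 genes with the highest mean CPM in EC were MTRNR2L12, EEF1A1, FTL, ACTB and GAPDH, and none passed 4-fold. MTRNR2L12, a gene similar to mitochondrial ribosomal RNA whose counts can be shared with near-identical copies, had means of 12022 CPM in EC and 6254 CPM in TB cells (difference 0.94). EEF1A1, a translation elongation factor, had 9375 and 24208 CPM (difference -1.37). FTL, the light chain of the iron store ferritin, had 7500 and 3919 CPM (difference 0.94). ACTB and GAPDH, often used as constant reference genes, differed by 0.10 and 0.13. TPM1, a tropomyosin that binds actin filaments, took the place of FTL among the 5 highest genes of TB. TPM1 ranged from 7.51 to 254 CPM over EC cells (median 26.5) and from 2747 to 11462 CPM over TB cells (median 5584), with no overlap (difference -6.55).

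Of 166 genes with a mean of at least 500 CPM in both types, the 5 nearest to 0 were PSMB4, SERINC5, ENAH, FRK and FDFT1. PSMB4 is a subunit of the proteasome and FDFT1 an enzyme of cholesterol synthesis. Their differences ran from -0.01 for ENAH to 0.02 for FDFT1.

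Each cell resembled its own type more than the other. Pearson correlations of log2(CPM + 1) over the 10945 genes had a median of 0.580 between pairs of EC cells (0.474 to 0.679) and 0.581 between pairs of TB cells (0.388 to 0.736). Between an EC and a TB cell the median was 0.464 (0.303 to 0.561). For 86 of 86 cells the most similar other cell was of the same type. The leading principal component held 13.7% of the variance. EC cells lay between 38.8 and 109 on it, the lowest being EC 15, and TB cells between -95.8 and -29.7. The TB cells nearest to EC were TB 7 (-29.7) and TB 9 (-31.6), and the other TB cells lay at -55.1 or lower. The second component held 2.95% and ran within both types. TB 7 and TB 9, with 494200 and 529700 counts, lay at -138 and -130.1 on it.

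**Figure D2:**
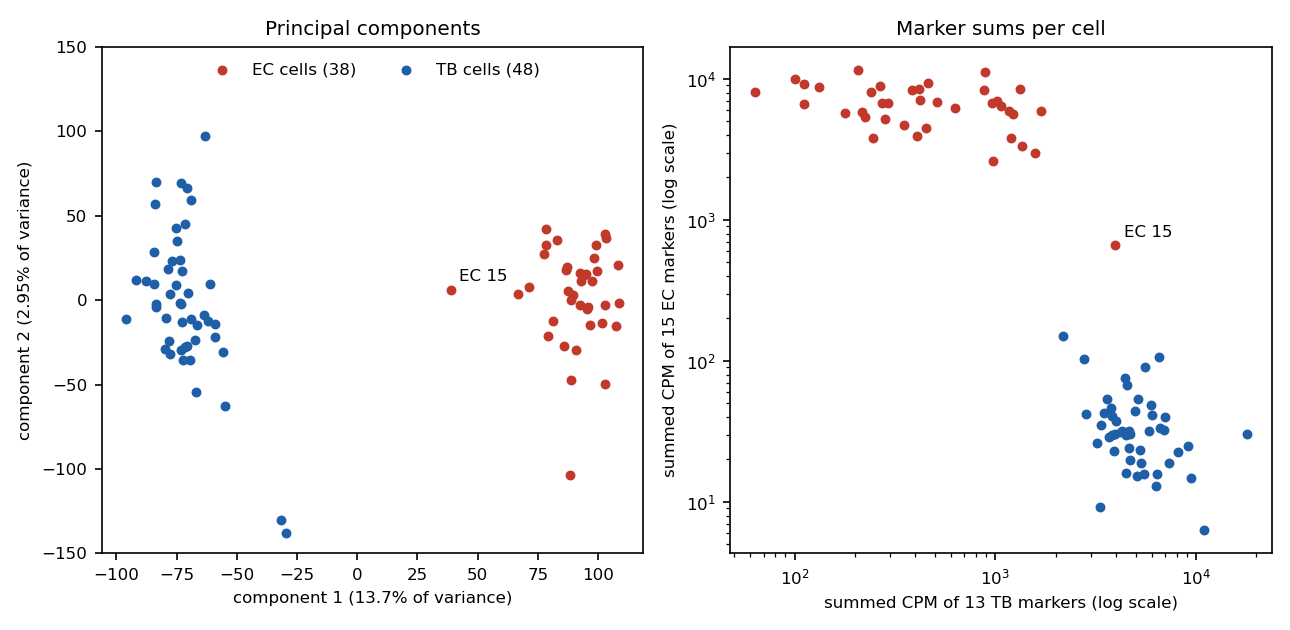
Left, position of the 38 EC and 48 TB cells on the leading components (axes give the share of variance). Right, summed CPM of the 13 TB markers against the 15 EC markers in each cell (log scales), where EC 15, at 3963 and 659 CPM, lies between the types on the EC-marker axis and within the TB range on the TB-marker axis.

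KDR, the main signalling receptor for VEGF (chr4:55078481-55125595, minus strand, GRCh38), ranged from 51.3 to 3318 CPM over the 38 EC cells (median 1806). In the 48 TB cells KDR ranged from 0.394 to 27.4 CPM (median 2.36). Every EC cell lay above every TB cell. The mean was 1600 ± 710 CPM (SD over cells) in EC and 4.27 ± 5.45 CPM in TB, a difference of 8.25. The sums behind these means were 127062 KDR counts in EC (95% exact Poisson interval 126364 to 127763) and 340 in TB (305 to 378), and the intervals cover counting error only.

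CDH5, the cadherin of endothelial junctions (chr16:66366690-66404784, plus strand), ranged from 34.4 to 2282 CPM in EC cells (median 332) and from 0 to 8.21 CPM in TB cells (median 0.446). The types did not overlap, and the difference was 7.86. GNG11, a subunit of G proteins, ranged from 7.47 to 1488 CPM in EC cells (median 730) and from 0 to 5.66 CPM in TB cells (median 0.796). FLI1, an ETS-family factor, ranged from 26.9 to 1598 CPM (median 483) in EC and reached 24.6 CPM in TB cells (median 0.797). Again no TB cell reached the lowest EC cell, and the differences were 8.36 for GNG11 and 7.68 for FLI1. In both genes the lowest EC cell was EC 15, and the next lowest held 137 CPM of GNG11 and 142 CPM of FLI1. IGFBP4, which binds insulin-like growth factors, ranged from 88.7 to 1519 CPM in EC cells and from 0 to 20.02 CPM in TB cells (difference 7.57). ESAM, an adhesion molecule of endothelial junctions, ranged from 15.0 to 527 CPM and from 0 to 7.34 CPM (difference 7.13). RASIP1, which acts with Ras-family GTPases in vessel formation, ranged from 5.00 to 204 CPM and from 0 to 1.54 CPM (difference 5.55).

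KDR, CDH5, GNG11, FLI1, IGFBP4, ESAM and RASIP1 were the 7 genes (0.064% of those compared) whose lowest EC cell was above the highest TB cell. Without EC 15 there were 13 such genes (0.119%), the others being TFPI, RNASE1, PLVAP, APLNR, MMRN2 and ECSCR. In EC 15 itself RNASE1 stood at 7.97 CPM, the lowest of the EC cells.

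Other genes with large differences overlapped between the types in their lowest EC cells. LPL, the lipase that acts on circulating lipoproteins at the vessel wall, ranged from 0.942 to 5716 CPM in EC cells (median 818) and from 0 to 9.23 CPM in TB cells (median 1.38), and had the largest difference of the genes named by rule, 8.44. RNASE1, a secreted ribonuclease, had a median of 622 CPM in EC and 1.14 CPM in TB cells (difference 8.42). CD34, a surface protein of endothelial and blood progenitor cells, had medians of 667 and 1.04 CPM (difference 8.19). Their EC minimum lay within the TB range, as it did for LPL.

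SELE, the E-selectin that captures white blood cells, varied widely among EC cells, from 0.615 to 4123 CPM with a median of 193 CPM. TB cells held 0 to 9.44 CPM of SELE (median 0.630), and the difference of the means was 8.02. TM4SF18, a tetraspan membrane protein, and TEK, the angiopoietin receptor, differed by 8.30 and 7.71. BCL6B, a transcriptional repressor, differed by 8.19, ECSCR, an endothelial surface protein, by 7.88, and APLNR, the receptor for apelin, by 7.83. VAV3 and RASGRP3, which switch on small GTPases, differed by 7.76 and 7.69. Of the genes in this paragraph, VAV3 had the lowest EC median, 133 CPM, and TM4SF18 the highest TB median, 0.939 CPM.

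**Figure D3:**
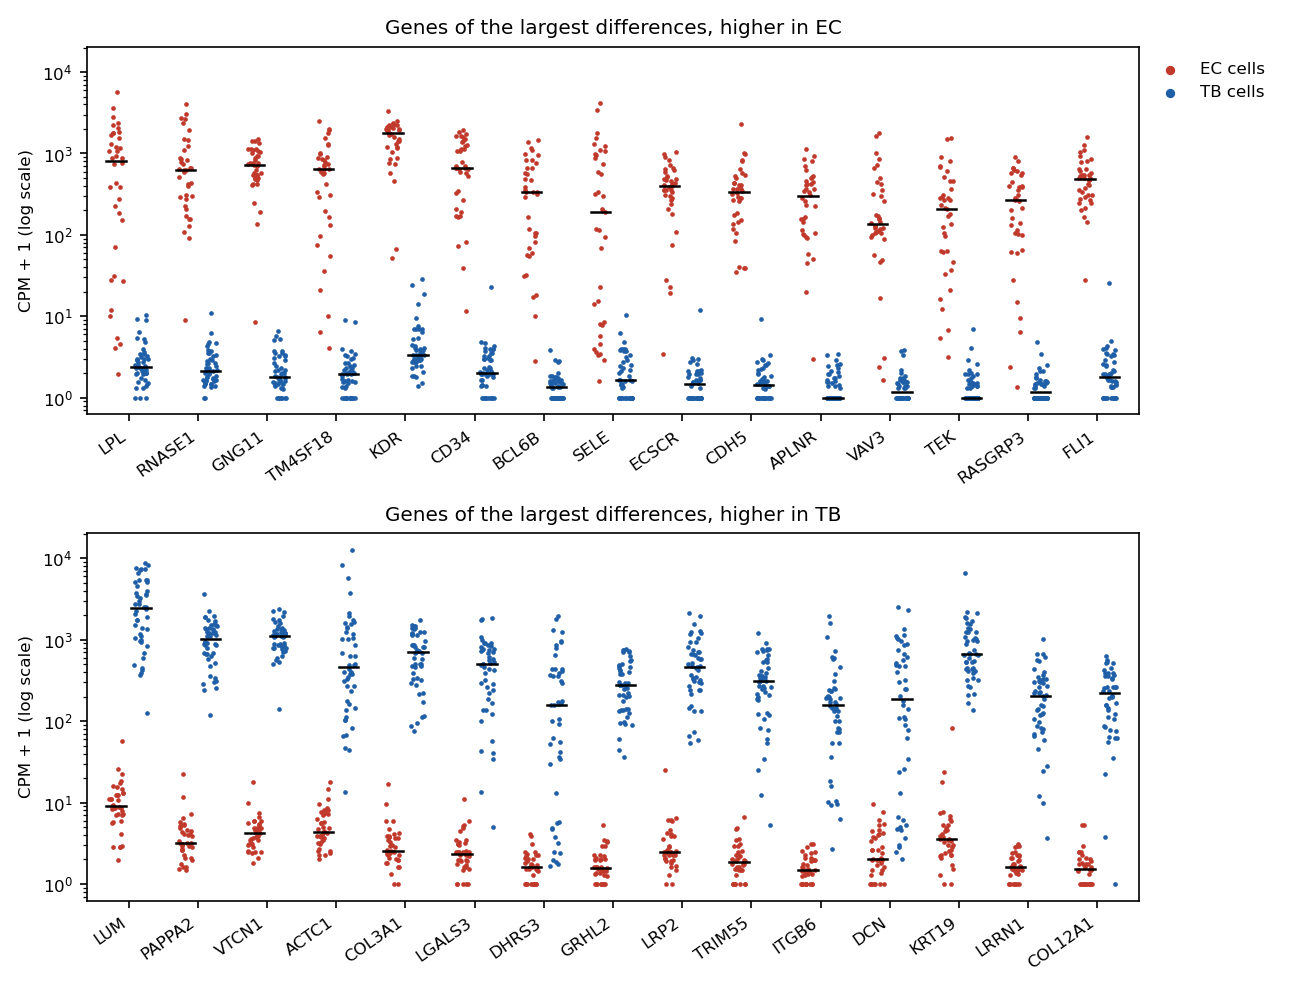
CPM + 1 (log scale) of the 15 genes of the largest difference in each direction, each point 1 cell and each bar the median of the cells. KDR, GNG11, CDH5 and FLI1 in the upper panel and LUM, PAPPA2, VTCN1, COL3A1, GRHL2, LRP2, KRT19 and LRRN1 in the lower one show no overlap of the types, while SELE and DHRS3 spread over more than 3 orders of magnitude within the higher type.

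Of 27 endothelial junction and surface genes compared, 25 were at least 4-fold higher in EC and none in TB, with a median difference of 5.94 against -0.05 over all genes. For this and every later list, the shares to set beside such counts are 8.37% in EC and 11.7% in TB, those of all genes compared. PECAM1, an adhesion molecule between endothelial cells, had EC values from 28.7 to 4032 CPM and TB values from 0.571 to 77.4 CPM (difference 6.37). FLT1, the other VEGF receptor of this list, differed by 6.27. VWF, the clotting protein stored by endothelial cells, was uneven among EC cells, from 0 to 1554 CPM with a median of 13.9 CPM, and differed by 5.66. PODXL and ACKR3 did not pass 4-fold, with differences of 0.21 and -0.29. The sum of this list ranged from 970 CPM in EC 15 to 14812 CPM in EC cells and from 26.4 to 669 CPM in TB cells, so that every EC cell, EC 15 included, was above every TB cell.

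Of 22 endothelial transcription factors compared, 16 were 4-fold higher in EC and 2 in TB, or 3 in TB without EC 15 (median difference 4.22). After BCL6B, the largest differences were those of the ETS factors FLI1 and ERG and of MEF2C, a MADS-box factor. ERG ranged from 2.52 to 899 CPM in EC cells and from 0 to 5.47 CPM in TB cells (difference 7.07). MEF2C differed by 7.13, and TAL1, a regulator of blood and vessel precursors, by 6.17. The SOX factors of vessels differed in both level and evenness. SOX17 was at a median of 3.00 CPM in EC with a highest cell of 302 CPM (difference 5.13, or 4.91 without EC 15). SOX18 was at a median of 5.73 CPM (difference 3.22). SOX7 was present in both types, from 19.9 to 1470 CPM in EC and from 4.03 to 593 CPM in TB (difference 2.64). GATA2, a factor of blood, vessels and trophoblast, had medians of 34.4 and 18.2 CPM and did not pass 4-fold (difference 0.77).

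EPAS1, the hypoxia-inducible factor also known as HIF-2-alpha, carried an endothelial label in this list and was higher in TB. EPAS1 (chr2:46293667-46386697, plus strand) ranged from 333 to 1519 CPM over TB cells (median 664) and from 0 to 445 CPM over EC cells (median 3.03). The difference was -5.01, with -5.03 in EQ-Vary and -4.78 in EQ-75%. NR2F2 is an orphan nuclear receptor known for vein identity and also made by trophoblast. With every passing EC cell kept, NR2F2 was the other factor of this list at least 4-fold higher in TB. It had medians of 0.952 CPM in EC and 136 CPM in TB (difference -4.19). Of the 22 factors compared, 19 had a positive difference.

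Genes of the Notch pathway and of arteries were mostly higher in EC, with 10 of 19 past 4-fold in EC, 1 in TB and a median of 2.26. DLL4, a Notch ligand of arteries, ranged from 0 to 547 CPM in EC cells (median 36.4) and from 0 to 1.03 CPM in TB cells (difference 6.36). GJA4, a gap junction protein, and APLN, the ligand of APLNR, differed by 6.80 and 6.23. HEY2, a Notch target, differed by 4.75. Among the Notch receptors, NOTCH4 differed by 3.89, NOTCH1 by 1.95 and NOTCH2 by -2.38. NRP1, a VEGF co-receptor, was present in both types at medians of 383 CPM in EC and 157 CPM in TB (difference 1.24).

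FGF receptors and feedback genes of FGF signalling were mostly higher in EC than in TB, whose medium lacked FGF2, and the part of the medium was not tested. Of 12 compared, 7 were 4-fold higher in EC and 2 in TB (median 2.29). DUSP6, a phosphatase that acts on ERK, ranged from 2.99 to 1944 CPM in EC cells (median 624) and from 0 to 99.8 CPM in TB cells (median 1.24), a difference of 6.59. The ETS factors ETV5 and ETV4 differed by 7.35 and 6.08, and SPRY4, a feedback inhibitor, by 4.58. The family was not uniform. SPRY2, a relative of SPRY4, was higher in TB (difference -4.39), as was the receptor FGFR2 (-2.96), while the receptor FGFR1 was higher in EC (3.29).

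Glycolysis and glucose transport genes were mostly higher in EC, with 8 of 20 past 4-fold in EC, 1 in TB and a median of 1.78. Summed over the list, EC cells held 13533 to 48869 CPM (median 25949) and TB cells 2997 to 25329 CPM (median 11377). All 38 EC cells were above the TB median. ENO1, the enolase, ranged from 355 to 11176 CPM in EC cells (median 4969) and from 63.3 to 4945 CPM in TB cells (median 636), a difference of 2.42. LDHA, which makes lactate, had medians of 1675 and 93.1 CPM (difference 3.22). PFKFB3, which makes an activator of phosphofructokinase, had the largest difference of the list, 4.91, at an EC median of 18.2 CPM. SLC2A1, a glucose transporter, differed by 2.57. Of the 20 genes, 16 had a positive difference. GAPDH was near 0, at 0.13, and the phosphofructokinase PFKP was the lowest, at -2.95.

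Integrins and other matrix receptors differed by member. Of 20 integrins compared, 7 were 4-fold higher in EC and 2 in TB (median 1.02), beside 8.37% and 11.7% of all genes compared. ITGA5, a fibronectin receptor subunit, differed by 4.91 and ITGA10, a collagen receptor subunit, by 6.32. ITGB1, the common beta subunit, had means of 1420 CPM in EC and 674 CPM in TB (difference 1.07), and ITGB6, an epithelial beta subunit, differed by -7.35. Collagens also differed by member, with 3 of 23 past 4-fold in EC and 8 in TB. COL1A2, the most abundant collagen of the list, had a mean of 840 CPM in EC and did not pass 4-fold (difference 1.51). The EC members past 4-fold were of the basement membrane and vessel wall, COL4A1 at 5.74, COL15A1 at 5.22 and COL4A2 at 3.11. COL4A1 and COL4A2 lie head to head on chromosome 13. The TB members past 4-fold included COL3A1 (-7.75) and COL12A1 (-7.11), which build fibrils or bind to them. The median over the collagens was -0.06 and turned to positive when summed counts were scaled with or without TMM factors, so no direction is given for the list.

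LUM, a proteoglycan of collagen matrix (chr12:91102629-91111494, minus strand), ranged from 124 to 8864 CPM over the 48 TB cells (median 2438) and from 0.996 to 55.6 CPM over the 38 EC cells (median 7.96). Every TB cell lay above every EC cell. The mean was 3042 ± 2423 CPM in TB and 10.2 ± 9.28 CPM in EC, a difference of -8.08. The LUM sums were 298654 counts in TB (95% exact Poisson interval 297584 to 299727) and 646 in EC (597 to 698).

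PAPPA2, a placental protease that cuts IGF-binding proteins (chr1:176463171-176845601, plus strand), ranged from 119 to 3597 CPM in TB cells (median 1028) and from 0.498 to 21.4 CPM in EC cells (median 2.18), a difference of -7.99. VTCN1, an inhibitory surface protein of the B7 family also called B7-H4 (chr1:117143587-117210960, minus strand), ranged from 140 to 2403 CPM in TB cells (median 1115) and from 0.834 to 17.1 CPM in EC cells (median 3.24), a difference of -7.94. VTCN1 varied less among TB cells than LUM did, with a mean of 1142 ± 468 CPM. COL3A1, a fibrillar collagen, ranged from 75.4 to 1726 CPM in TB and from 0 to 15.7 CPM in EC cells. None of these genes overlapped between the types.

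ACTC1, the actin of heart muscle, was uneven among TB cells, from 12.3 to 12651 CPM over TB cells with a median of 460 CPM. In EC cells ACTC1 ranged from 1.04 to 17.1 CPM, and the difference was -7.78, but reads of actin genes can be shared with near-identical copies. LGALS3, a galectin, ranged from 4.05 to 1854 CPM in TB cells and from 0 to 10.1 CPM in EC cells (difference -7.64). LRP2, an endocytic receptor of epithelia, ranged from 52.5 to 2157 CPM in TB cells and from 0 to 24.3 CPM in EC cells (difference -7.41). The lowest TB cells overlapped with EC cells in ACTC1 and LGALS3 but not in LRP2. The 3 smooth muscle markers, all with mean CPM of at least 5 in both types, summed to between 0 and 352 CPM in EC cells and between 0.521 and 1565 CPM in TB cells, and their part in the muscle-type genes was not tested. TAGLN, an actin-binding protein and 1 of the 3, had medians of 0.391 CPM in EC and 79.9 CPM in TB (difference -3.42). The others, ACTA2 (-1.61) and CNN1 (-1.65), did not pass 4-fold. Of 19 mesenchymal and smooth muscle genes compared, 2 were past 4-fold in EC and 6 in TB (median -0.71), beside 8.37% and 11.7% of all genes.

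The remaining genes of the 15 with the largest differences were DHRS3, a retinal reductase (-7.56), GRHL2, a regulator of epithelial identity (-7.47), TRIM55, a muscle-type ubiquitin ligase (-7.36), ITGB6 (-7.35), DCN, a proteoglycan (-7.23), KRT19 (-7.17), LRRN1, a neuronal-type membrane protein (-7.13), and COL12A1 (-7.11). Of all genes, 14 (0.128%) had their lowest TB cell above the highest EC cell. They were LRP2, GRHL2, PTN, CPE, HAND1, PAPPA2, MTUS2, VTCN1, LUM, TPM1, ADAMTS18, COL3A1, KRT19 and LRRN1. Without EC 15 there were 15 (0.137%), EPCAM being the other.

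The windows around the starts of 4 genes with large differences are printed to show that they differ in composition. The sequences are from RefSeq (GRCh38.p14), 250 bases before to 50 after the start, read 5′ to 3′ on the strand of the gene. Capitals mark a match to a SOX motif (ACAATG, also found as CATTGT on the other strand) or an AP-2 motif (GCCNNNGGC), both searched on both strands. KDR lies at chr4:55125546-55125845, SELE at chr1:169734030-169734329, VTCN1 at chr1:117210878-117211177 and ITGB6 at chr2:160200223-160200522, all on the minus strand.
KDR: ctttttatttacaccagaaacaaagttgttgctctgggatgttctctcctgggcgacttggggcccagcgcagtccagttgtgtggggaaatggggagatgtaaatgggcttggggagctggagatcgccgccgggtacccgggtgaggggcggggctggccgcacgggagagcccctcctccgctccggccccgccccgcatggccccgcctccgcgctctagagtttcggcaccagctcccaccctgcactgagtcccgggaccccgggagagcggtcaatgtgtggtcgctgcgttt
SELE: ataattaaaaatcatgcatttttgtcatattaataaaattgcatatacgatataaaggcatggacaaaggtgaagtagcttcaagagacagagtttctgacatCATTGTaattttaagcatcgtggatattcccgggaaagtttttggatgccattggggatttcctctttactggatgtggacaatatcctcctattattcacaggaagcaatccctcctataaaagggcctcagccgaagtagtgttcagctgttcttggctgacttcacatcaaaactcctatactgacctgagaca
VTCN1: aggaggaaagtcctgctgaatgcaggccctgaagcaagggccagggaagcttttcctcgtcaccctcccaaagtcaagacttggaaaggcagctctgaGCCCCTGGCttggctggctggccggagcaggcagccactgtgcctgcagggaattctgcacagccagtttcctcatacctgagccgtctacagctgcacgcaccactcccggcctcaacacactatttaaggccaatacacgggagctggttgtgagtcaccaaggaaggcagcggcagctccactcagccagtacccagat
ITGB6: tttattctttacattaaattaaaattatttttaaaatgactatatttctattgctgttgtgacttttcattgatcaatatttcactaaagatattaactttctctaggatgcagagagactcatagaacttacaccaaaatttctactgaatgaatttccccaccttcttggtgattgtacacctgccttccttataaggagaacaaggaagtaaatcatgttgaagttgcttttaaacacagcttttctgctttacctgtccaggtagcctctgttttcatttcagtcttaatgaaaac

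KDR, higher in EC, has a window of 65.0% G and C with 22 CpG, and SELE, also higher in EC, 38.3% with 4 CpG. VTCN1 and ITGB6, higher in TB, have 58.7% with 7 CpG and 31.7% with 0 CpG. SELE holds the SOX letters at position -147 from the start and VTCN1 the AP-2 letters at -152. Neither motif is in the windows of KDR and ITGB6. Of 8888 windows of genes compared, 6.13% held the SOX letters and 31.2% the AP-2 letters, and a match is a description of the letters only. The median window of these genes had 65% G and C and 26 CpG. Shares over the sets higher in EC and TB are not given, because windows were matched for only 76.5% and 78.8% of their genes.

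Transcription factors of trophoblast were higher in TB, with 15 of 22 past 4-fold in TB, 1 in EC and a median of -2.96. Their sum ranged from 1175 to 3780 CPM in TB cells and from 23.5 to 1022 CPM in EC cells, the highest EC cell being EC 15. HAND1, a factor of extraembryonic mesoderm and trophoblast (chr5:154474972-154478227, minus strand), ranged from 41.6 to 526 CPM in TB cells (median 193) and from 0 to 4.28 CPM in EC cells (median 0.480), a difference of -6.99. VGLL1, a partner of TEAD factors, ranged from 0 to 323 CPM in TB cells (median 128) and from 0 to 2.85 CPM in EC cells (difference -6.46). TFAP2B and MSX2 differed by -6.31 and -5.05.

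The most used trophoblast markers differed less. GATA3 ranged from 11.7 to 601 CPM in TB cells (median 210) and from 0.417 to 946 CPM in EC cells (median 74.9), a difference of -0.97 that did not pass 4-fold. TFAP2A had medians of 215 CPM in TB and 9.74 CPM in EC, with EC cells up to 483 CPM (difference -1.68). TFAP2C had a median of 273 CPM in TB and 1.06 CPM in EC cells and a difference of -3.68. EC 15 held 995 CPM of TFAP2C, and without it the EC mean changed from 29.3 to 3.20 CPM and the difference from -3.68 to -6.53. CDX2 was detected in 1 of 48 TB cells and TP63 in 5. MSX1, a homeobox factor, was the member past 4-fold in EC (difference 3.54), and 3 of the 22 factors had a positive difference.

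Amnion-associated genes were also higher in TB, with 8 of 10 past 4-fold and a median of -4.45. Their sum ranged from 1026 to 8815 CPM in TB cells and from 9.46 to 666 CPM in EC cells, with no overlap. The list shares VTCN1, ITGB6 and TFAP2B with genes already described. IGFBP5, an IGF-binding protein, ranged from 113 to 6287 CPM in TB cells (median 1787) and from 1.84 to 124 CPM in EC cells (median 5.12), a difference of -6.64. ISL1, a homeobox factor, had a TB median of 35.995 CPM and differed by -2.95. BAMBI and HEY1 did not pass 4-fold, with 0.14 and 0.74.

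Placental hormone and syncytial genes were mostly too low to compare, with 5 of 18 reaching 5 CPM. HSD3B1, an enzyme of steroid hormone synthesis, was past 4-fold in TB (difference -5.14) and uneven, with a TB median of 0.531 CPM and a highest cell of 1390 CPM. CGA, the alpha chain of chorionic gonadotropin, had means of 1.44 CPM in EC and 2.93 CPM in TB cells.

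Keratins and genes of epithelial adhesion were higher in TB. Of 52 keratins listed, 8 were compared, of which 6 were past 4-fold in TB and none in EC (median -2.98, or -3.25 without EC 15). KRT19 ranged from 136 to 6511 CPM in TB cells (median 658) and from 0 to 81.5 CPM in EC cells (median 2.52). KRT18 was present in both types, from 267 to 6069 CPM in TB (median 1590) and from 14.8 to 1254 CPM in EC (median 168), a difference of -2.56. KRT8, its partner, had medians of 1068 and 38.3 CPM and a difference of -3.19, or -3.72 without EC 15, which held 1696 CPM. KRT7, the keratin commonly used to mark trophoblast, was lower and uneven, with a TB median of 6.94 CPM and a highest cell of 269 CPM (difference -4.67). KRT23 had no count in EC.

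Of 28 genes of epithelial adhesion and tight junctions, 17 were past 4-fold in TB and none in EC (median -2.87). EPCAM, an epithelial surface protein, ranged from 8.79 to 453 CPM in TB cells and from 0 to 9.46 CPM in EC cells (difference -6.40). CDH1, the epithelial cadherin, ranged from 47.4 to 1474 CPM in TB cells (median 522) and from 6.81 to 69.9 CPM in EC cells (median 16.5), a difference of -4.81. CDH3 differed by -4.46, the splicing regulator ESRP1 by -6.05 and the ETS factor ELF3 by -6.33. Junction proteins that endothelium also uses differed less, with 0.08 for TJP1 and 1.24 for F11R.

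**Figure D4:**
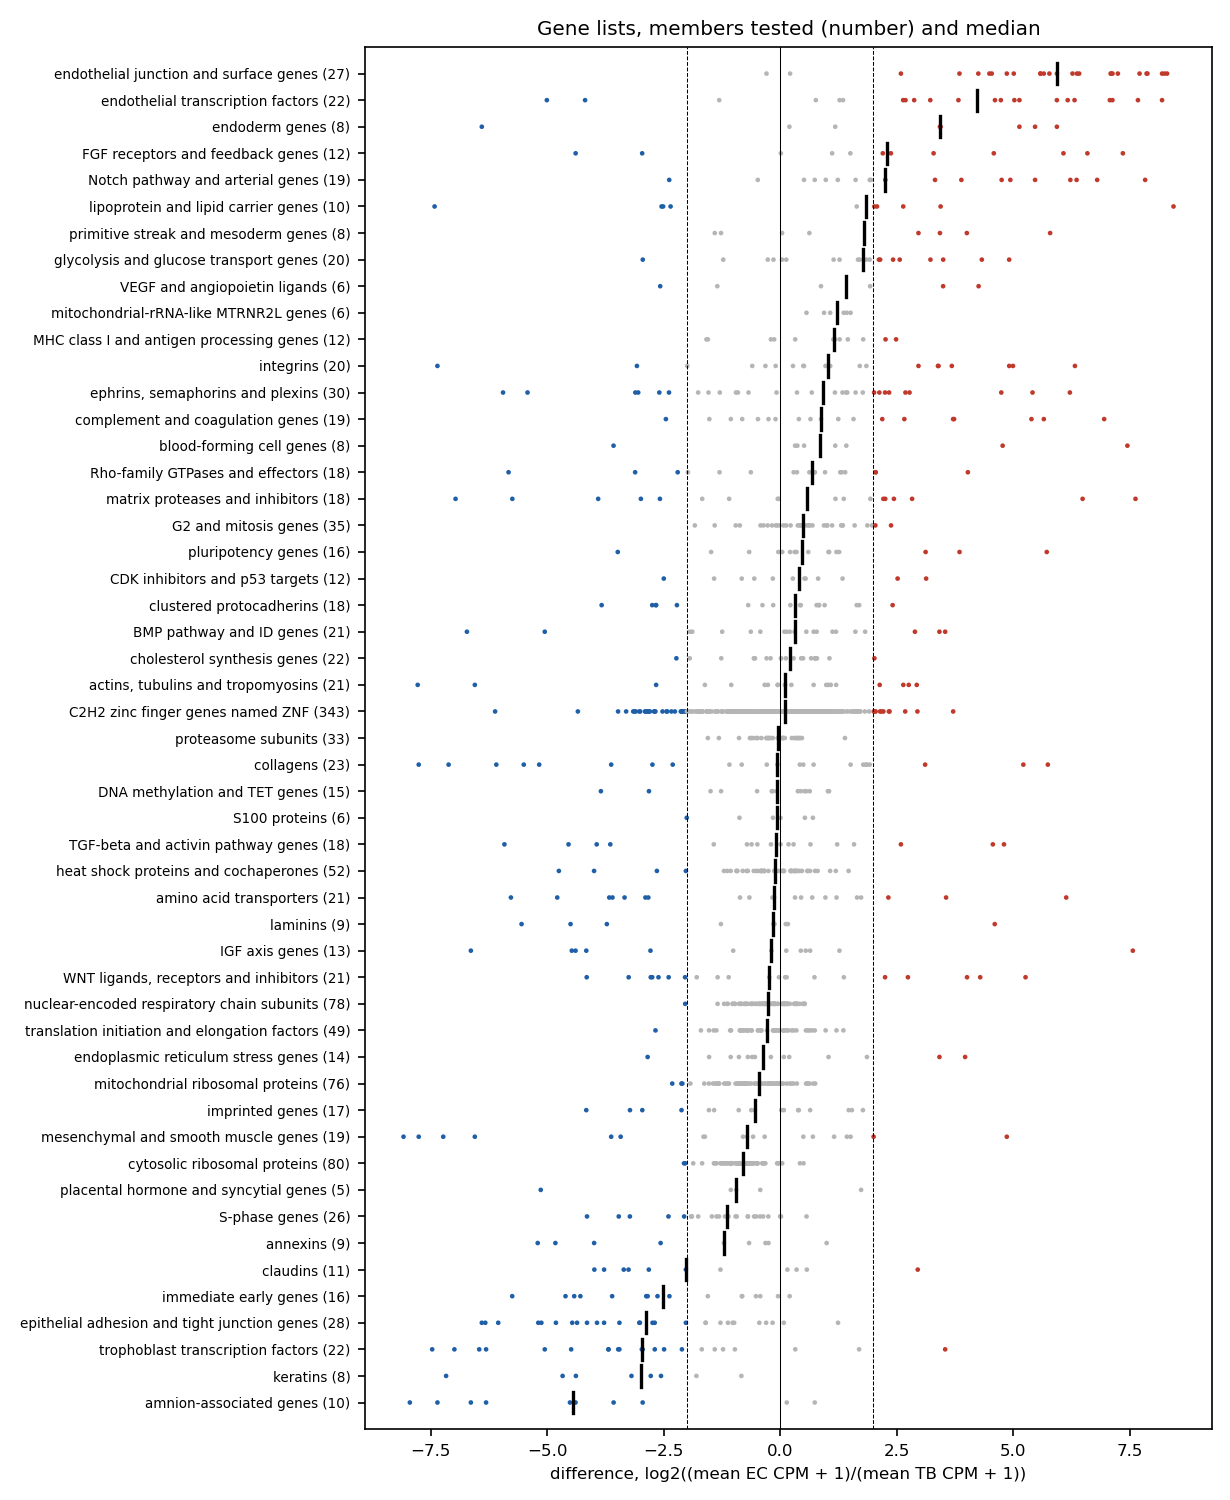
Difference of each gene compared in each gene list (points, number in brackets) and the median of the list (bars), with dashed lines at 4-fold. Positive values are higher in EC. The medians run from 5.94 for endothelial junction and surface genes to -4.45 for amnion-associated genes, and lists such as proteasome subunits (-0.05) lie near 0.

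Immediate early genes, which cells switch on within minutes of a stimulus, were higher in TB, with 9 of 16 past 4-fold in TB, none in EC and a median of -2.50. FOS ranged from 41.9 to 3846 CPM in TB cells (median 1003) and from 0.511 to 946 CPM in EC cells (median 5.19), a difference of -4.61. EGR1 had medians of 980 and 3.50 CPM (difference -4.42). EGR3 did not pass 4-fold (0.20). All 48 TB cells were above the EC median of the summed list.

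The BMP, TGF-beta and WNT lists each had members past 4-fold in both directions. Of 21 BMP pathway and ID genes, 3 were past 4-fold in EC and 2 in TB, or 3 in TB without EC 15 (median 0.31), and the shares over all genes were 8.37% and 11.7%. NOG, the secreted BMP inhibitor, ranged from 6.59 to 1361 CPM in TB cells (median 169) and from 0 to 13.7 CPM in EC cells (difference -6.72), and ACVRL1, an endothelial BMP receptor, differed by 3.42. Of 18 TGF-beta and activin genes, 3 were past 4-fold in EC and 4 in TB (median -0.09). INHBA, a subunit of activin, was higher in TB (-5.92) and the receptor TGFBR2 higher in EC (4.56). Of 21 WNT ligands, receptors and inhibitors, 5 were past 4-fold in EC and 7 in TB (median -0.23), from SFRP2 at 5.26 to LGR4 at -4.15.

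Genes of the IGF axis had opposite members at either end. IGFBP4 was higher in EC (7.57), and IGFBP5 (-6.64), IGFBP3 (-4.39) and IGF2 (-4.16) higher in TB, with 1 of 13 past 4-fold in EC and 5 in TB. IGF2, a growth factor of the fetus and placenta and an imprinted gene, had a TB median of 149 CPM and an EC median of 0.942 CPM. Of 17 imprinted genes, 4 were past 4-fold in TB and none in EC (median -0.54), beside 11.7% and 8.37% of all genes compared. Lipoprotein genes were similarly divided, 5 of 10 past 4-fold in EC and 4 in TB, with LPL and LRP2 at the ends.

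Of 19 complement and coagulation genes, 7 were past 4-fold in EC and 1 in TB (median 0.88). TFPI, an inhibitor of clotting made by endothelium, ranged from 196 to 3040 CPM in EC cells (median 1606) and from 0 to 247 CPM in TB cells (median 12.2), a difference of 5.39. PROCR, the receptor for protein C, differed by 6.95. Among 12 genes of MHC class I and antigen processing, 2 were past 4-fold in EC and none in TB (median 1.16), and 8 had a positive difference. TAP1 had the highest difference, 2.49, with counts in 1 EC cell only. B2M, the light chain of class I molecules, had medians of 723 CPM in EC and 269 CPM in TB (difference 1.78). HLA-E differed by 2.26, and HLA-C was the lowest, at -1.58. The HLA loci are variable and similar to each other, so their counts can be shared.

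Of 16 pluripotency genes compared, 3 were past 4-fold in EC and 1 in TB (median 0.48), beside 8.37% and 11.7% of all genes. LIN28A, an RNA-binding protein of stem cells, was at medians of 257 CPM in EC and 235 CPM in TB (difference -0.04). NANOG had medians of 33.7 and 27.4 CPM and a difference of 1.27, or 0.39 without EC 15, and POU5F1 a difference of 1.04, or 0.47 without it. SOX2 had no count in any passing EC cell. L1TD1 was higher in TB (-3.48) and GDF3 higher in EC (5.72), the latter with an EC median of 0.280 CPM and a highest cell of 700 CPM.

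Cytosolic ribosomal proteins were lower in EC by a small and shared amount. Of 80 compared, 77 had a negative difference, the median was -0.80 and 2 passed 4-fold, both higher in TB. Their sum was 43362 CPM in EC and 84523 CPM in TB as means over cells. Per cell it ranged from 24266 to 66358 CPM in EC (median 41161) and from 24506 to 119794 CPM in TB (median 88807). The highest EC cell was EC 15, and 44 of 48 TB cells were above it. RPL3 had medians of 1570 and 3984 CPM (difference -1.26). Mitochondrial ribosomal proteins had a median of -0.45 over 76 genes, nuclear-encoded respiratory chain subunits -0.26 over 78 and proteasome subunits -0.05 over 33. Many ribosomal protein genes have processed copies elsewhere in the genome, so their counts can be shared with them.

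Genes of S phase were lower in EC, with 5 of 26 past 4-fold in TB, none in EC and a median of -1.15. The shares over all genes were 11.7% in TB and 8.37% in EC. Without EC 15, which held the highest S-phase sum of the EC cells (3514 CPM), 7 were past 4-fold and the median was -1.44. Genes of G2 and mitosis had a median of 0.48 over 35 genes, which turned negative when the median over cells was used in place of the mean. Their sums had medians of 656 CPM in EC and 766 CPM in TB, with single cells up to 18066 CPM in EC and 8264 CPM in TB. Means of cycle genes therefore rested on few cells in both types.

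Such unevenness was also found among the genes past 4-fold. Of the 916 genes higher in EC, 226 were detected in every EC cell, 276 in fewer than 50% of EC cells, and 192 had over 50% of their summed CPM in 1 cell. Of the 1285 higher in TB, 274 were detected in every TB cell, 348 in fewer than 50%, and 105 rested on 1 cell in the same way. With the median CPM over cells in place of the mean, only 7032 genes reached 5 CPM in a type, against 10945 with the mean. Of these 7032 genes, 561 were 4-fold higher in EC and 1470 in TB. The EC share of the genes past 4-fold changed from 41.6% to 27.6%.

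Genes past 4-fold also lay beside each other in the genome more often than their share. Of the 916 genes higher in EC, 14.8% had a nearest compared neighbour that was also higher in EC, against 7.47% of all genes compared. For TB the shares were 19.8% and 11.03%. There were 52 runs of at least 3 adjacent compared genes past 4-fold in the same direction, 13 for EC and 39 for TB. They included KRT7, KRT8 and KRT18 at chr12:52232520-52952906, KRT23, KRT19 and KRT17 at chr17:40922700-41624842, CDH3, CDH1 and TANGO6 at chr16:68636189-69085182, and ATP2B1, LUM and DCN at chr12:89588049-91183217, all higher in TB. Runs higher in EC included TM4SF18, TM4SF1 and WWTR1 at chr3:149318498-149736714. Overlapping genes can share reads, and the build of these positions is GRCh38.

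A low level of the other type's genes was found in almost every cell, which bears on the largest differences. For 70 genes of EC chosen as at 0.5% or less of their own level in TB, the level in TB was a median 0.213% of that in EC. For 57 such genes of TB the median was 0.322%. Because the choice sets an upper limit, these are descriptions. KDR was detected in 48 of 48 TB cells and LUM in 38 of 38 EC cells. RASIP1 was detected in 8 of 48 TB cells (16.7%). No gene was detected in every cell of 1 type and in at most 1 cell of the other, whereas at 5 or more counts 3 genes of EC and 7 of TB were.

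Libraries with almost no counts held about as many of these other-type counts as the lower part of the full ones. The passing EC libraries held 46 to 190 counts of the 57 TB genes (median 82) and the passing TB libraries 29 to 222 counts of the 70 EC genes (median 74). The 3 EC libraries of EQ with fewer than 100000 counts (11418 to 13967) held 37 to 79. The 3 such TB libraries (8575 to 45821) held 25 to 72. As a share of the library this was 0.324% to 0.566% and 0.157% to 0.522%, against medians of 0.00420% and 0.00400% in passing libraries. Among passing libraries the other-type counts also rose with depth. Their medians were 109 in EC and 114 in TB for the 10 deepest libraries, and 66 and 73.5 for the 10 shallowest. Whether a count of such a gene in the lower type reflects expression was not tested, so none was read as expression. Differences near 8 rest on a level of this size in the lower type. The 96 libraries of an experiment shared a sequencing lane, and the source of these counts was not tested.

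**Figure D5:**
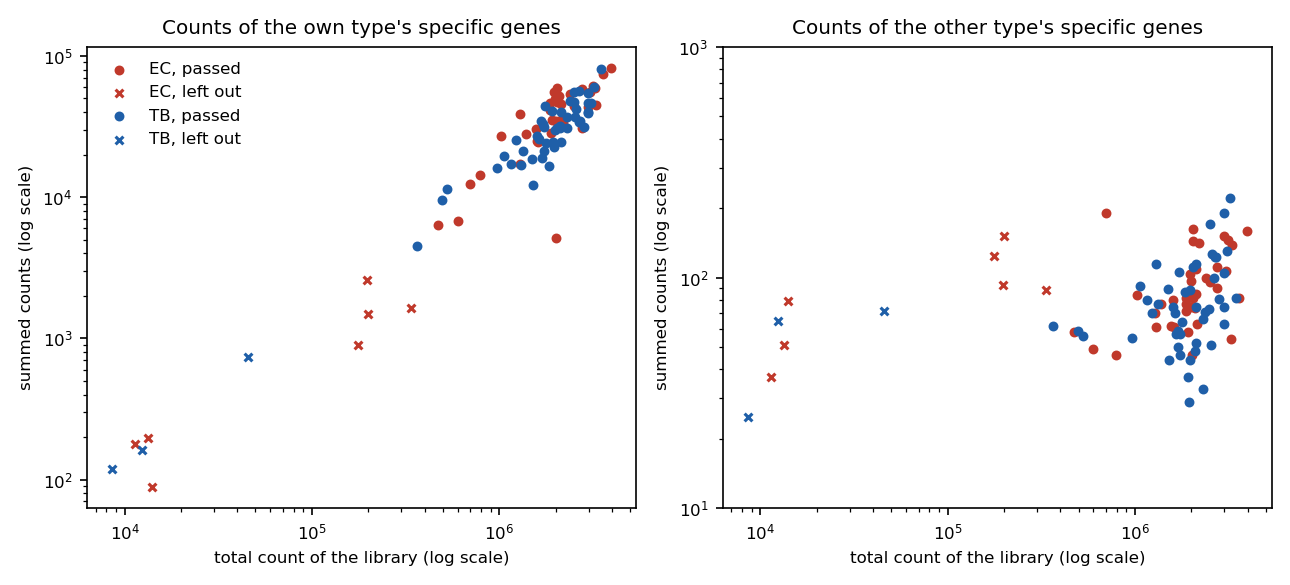
Summed counts of the specific genes of a library's own type (left) and of the other type (right) against the total count of the library (log scales), for all EQ libraries. Own-type counts follow the total, with EC 15 low. Other-type counts lie between 25 and 222 over totals from 8575 to 3966800, and among passing libraries their median is higher in the deepest than in the shallowest.

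In the other experiments the differences kept their direction and nearly all their size. Of the 916 genes higher in EC, 883 were past 4-fold in EQ-Vary and 831 in EQ-75%, with 817 past it in all 3. Of the 1285 higher in TB the numbers were 1226, 1195 and 1159. The direction was kept by 916 and 1284 genes in EQ-Vary and by 914 and 1285 in EQ-75%, and no gene was past 2-fold in the other direction. The median absolute move of these genes was 0.08 in EQ-Vary and 0.17 in EQ-75%. These libraries were made from the cDNA of the same cells, but the cells that passed differed in part, and 37 EC and 45 TB cells passed in all 3. The moves therefore include library making, sequencing and the change in the cells that passed.

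For KDR, CDH5 and LUM the values stood close. These genes and DHRS3 were named only if past 4-fold in the same direction in every experiment, so their agreement was partly set by the choice. In order of EQ, EQ-Vary and EQ-75%, KDR differed by 8.25, 8.39 and 8.71, CDH5 by 7.86, 8.01 and 7.40, and LUM by -8.08, -8.27 and -8.29. DHRS3 moved further, from -7.56 and -7.52 to -6.45 in the last. In all, 9 of the 2201 genes moved by over 1 on the log2 scale in EQ-Vary and 63 in EQ-75%. SLC1A4, an amino acid transporter chosen here after its values were seen, moved from 6.14 in EQ to 3.40 in EQ-75%. In EQ-75% the library TB 28 held 892 counts of EC-specific genes (0.0483% of its counts), the highest of the passing TB libraries. TB 48 had the lowest share of its own type's genes (0.300%). Neither cell passed in EQ. Without both, EQ-75% gave 873 genes 4-fold higher in EC and 1289 in TB, against 855 and 1310 with them.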

How the data were processed

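Cells were captured and their cDNA amplified on a C1 microfluidic system. Per the labels and the study's methods, the authors trimmed reads to 51 bases, aligned them with Bowtie 1.2.3 to the protein-coding genes of GRCh38 allowing up to 2 mismatches and estimated expected counts per gene with RSEM 1.2.31. The deposited tables hold these expected counts, 1 table per experiment and 1 column per cell. Expected counts were rounded, and both detection and CPM used the rounded counts, with CPM scaled to their sum in each cell. The log10 total used the unrounded counts. Cells passed with a log10 total of at least 5.4 and no more than 31% of counts in the 50 top genes. Differences are log2 ratios of mean CPM with a pseudocount of 1, over genes with a mean of at least 5 CPM in a type. With 1 sample per type no model was fitted. The calculation was checked on simulated counts of 9620 genes, where 90.0% of genes changed 8-fold and 1.55% of unchanged genes passed 4-fold. Named genes were, in each direction, the 15 of largest difference with at least 50 CPM and detection in at least 50% of cells of the higher type that were past 4-fold in all experiments. The 5 most abundant genes per type, the ends and the most abundant member of each list, and the 5 abundant genes of least difference were added. Marker and separated genes were also named, and other members of the 54 gene lists were picked after their values were seen. The comparison and the lists were chosen with earlier results of these data known. Positions are from GENCODE v44 (GRCh38), which matched 17431 gene identifiers. Alternatives changed the cell limits, the pseudocount, the average, the scaling, the filter and the fold. Protein lengths were not analysed here. Depth limits low genes, and intervals cover counting error only, since the PCR-amplified reads carry no molecular identifiers. Python 3.11.15, numpy 2.4.6, pandas 2.3.3, scipy 1.17.1, R 4.3.3 and edgeR 4.0.16 (TMM factors as an alternative) were used.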

Additional observations from a re-analysis of the deposited data

Results flagged for a closer look

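Counts of the other type's specific genes were present in libraries that the comparison leaves out for having fewer than 100000 counts in all, well above the limit that a count of 0 allows. The median was 51 counts over 3 such EC libraries and 65 over 3 such TB libraries of EQ. In EQ-Vary it was 49 over 4 EC libraries and 29 over 3 TB libraries. In EQ-75% the 1 EC library held 39 and the 1 TB library 29. The source of these counts was not tested.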

How the results depend on the processing

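Of 10 main results, 84 of 101 values under alternatives stayed within the limits set for a change. The numbers of genes 4-fold higher in EC and TB, 916 and 1285, became 381 and 400 with a pseudocount of 10, which lowers the ratio of low genes by construction. They were 1918 and 2632 at 2-fold, and 765 for TB with a mean of at least 20 CPM, which leaves fewer genes. For EC they were 561 of 7032 genes compared with the median CPM and 485 of 7689 with the mean of log2(CPM + 1). Both averages leave fewer genes than the 10945 of the main setting, and other causes were not tested. The number of lists with a median of at least 1 in size fell from 23 to 15 with the median CPM. Genes that separated all cells numbered 0 for EC and 2 for TB when all 45 EC and 51 TB cells were used, 11 for EC in EQ-Vary, and 13 for EC without EC cell 15. Genes in every cell of a type and at most 1 of the other numbered 1 for EC after thinning to 250000 counts, and 3 and 7 at 5 or more counts. Thinning lowered the median similarity to 0.544 within EC and 0.434 between types. Primitive streak and mesoderm genes turned from 1.797 to -0.40 when the highest and lowest 10% of cells were left out. No paired analysis was possible because the result comes from no test and EC and TB share no cells. TMM factors shifted the median of all genes by less than 0.1. Each type is 1 sample of 1 line, so no value here measures the spread between cultures, and counts near the low level shared by all libraries limit statements about absence.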

Other observations

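Some abundant genes past 4-fold belonged to none of the lists and were chosen after their values were seen. MARCKS, a membrane-bound actin regulator, ranged from 234 to 10481 CPM in EC cells (median 4779) and from 7.30 to 1367 CPM in TB cells (median 224), a difference of 4.10. JAM3, a junctional adhesion molecule, had medians of 886 CPM in EC and 1.94 CPM in TB (difference 7.59). In TB, CTSV, a lysosomal protease, ranged from 172 to 3932 CPM (median 1468) against 1.11 to 292 CPM in EC (difference -5.37). MDK, a secreted growth factor, had medians of 1069 CPM in TB and 119 CPM in EC (difference -2.81), and THBS1, a matrix protein that restrains vessel growth, 390 and 4.48 CPM (difference -6.32).

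Annexins, calcium-dependent membrane-binding proteins, had 4 of 9 genes past 4-fold in TB and none in EC (median -1.21). ANXA1 ranged from 3.95 to 2984 CPM in TB cells (median 1132) and from 1.07 to 502 CPM in EC cells (median 4.78), a difference of -3.99. ANXA3 had medians of 1761 and 6.75 CPM (difference -5.20). ANXA2, the most abundant member, was present in both types (difference -1.21). Of 39 HOX genes listed, HOXB2 alone reached 5 CPM, with a mean of 10.4 CPM in TB and 0.0552 CPM in EC cells.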
